A study of Paeonia ostii with 18 samples.

Results

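The step in which flower buds of the tree peony *Paeonia ostii* 'Feng Dan Bai' left endo-dormancy was examined by setting the 3 arrays of buds chilled for 18 d against the 3 arrays of buds chilled for 15 d. These 6 arrays were taken by their titles from the 18 arrays of a time course over 6 chilling times. The labels class the buds of 15 d as endo-dormancy and those of 18 d as endo-dormancy release. Both groups came from untransformed potted plants, 4 years old, kept in a cold room at 0 to 4 °C, and they differ in the labels only by the 3 further days of chilling. Each sample pooled mixed buds, 3 per plant, from 3 plants, so that a level is an average over all tissues of whole buds, and a smaller share of a tissue cannot be told apart from less RNA per cell. The SD between replicates is that between such pools.

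Endo-dormancy is a state in which the bud itself prevents growth, also in warm conditions, and it ends after enough cold has been accumulated. The bud then enters eco-dormancy, in which only the cold outside holds it back. Gibberellins are growth hormones with a role in this release in many woody plants. They bind the receptor GID1, and the receptor then brings about the breakdown of DELLA proteins, which repress growth genes. In germinating cereal grains gibberellin induces alpha-amylase, the enzyme that breaks starch into sugar.

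Total RNA was labelled with Cy3 and hybridized to a custom Agilent tree peony array, with 1 sample per array. Of 14957 probes, 14956 could be tested, and 12892 of them were well above background on all 6 arrays. No spot was saturated. Well above background were 88.5 to 93.7% of probes on the 15 d arrays and 91.6 to 94.7% on the 18 d arrays. All 6 arrays lay on the same slide, but those of 15 d lay in its first row and those of 18 d in its second row. Within these 6 arrays the row and the chilling time cannot be told apart. The 75th percentile of the signal before normalization was 12024.5, 11263.7 and 11235.4 at 15 d and 16990.8, 13924.4 and 14049 at 18 d, so that every 18 d array was brighter. Levels are given below as quantile-normalized log2 signal, and a difference of 1 is 2-fold. Levels of different probes are not compared, because probes differ in how well they bind. A probe keeps the name CUST and its number from the array. Gene symbols and protein names are those the study gave to the closest match in another plant, mostly Arabidopsis, and stand for that match. Most of them are held by probes which the study had called changed on these same arrays, so that counts over named genes are not independent evidence.

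The probes carry no sequence in the files used here, but the designed real-time PCR primers identify the transcripts of the study's main genes. They are printed for AMY2, an alpha-amylase, for SPY, a repressor of gibberellin signalling, for GA2OX8, which inactivates gibberellin, and for CYCD2;1, a cyclin of the D type that drives entry into the cell cycle. Each pair is given in the order of the primer list, from 5′ to 3′, and no letter is set in capitals because no site within them was examined.
AMY2 primer 1: caatcatcgtgttgggactactcg
AMY2 primer 2: cactatttcgtagccatcgtagcc
SPY primer 1: ggagttccgtgtgtgacaatgg
SPY primer 2: ggtgactttgacatacgctctcg
GA2OX8 primer 1: cagacccaccatttcaagaaacctac
GA2OX8 primer 2: actctcgtgaagttctggctatctc
CYCD2;1 primer 1: ccgagaatccaaactccagcgaag
CYCD2;1 primer 2: aaatccctcaatcccgaccgttc

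Few probes passed the adjusted threshold between the buds of 18 d and those of 15 d. With limma's moderated t over all 18 arrays and an adjusted p under 0.05, 3 of 14956 probes (0.0201%) fell from 15 to 18 d and 0 rose. At an unadjusted p under 0.05, 1223 probes (8.18%) passed, of which 636 (4.25%) were higher and 587 (3.92%) lower at 18 d. The methods' Tukey test at an unadjusted p under 0.05 called 260 probes, and 0 after Benjamini-Hochberg adjustment. A fit to the 6 arrays alone called 78 probes, 11 higher and 67 lower, which shared 2 probes with the 3. Every one of the 3 calls was lost when any single array of 15 or 18 d was left out, and also without any array of 0 d or replicate 1 or 2 of 24 d.

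The spread between replicates was nearly as wide as the distance between the times. Pairs of 15 d arrays correlated over probes at 0.986 to 0.9877, pairs of 18 d arrays at 0.9785 to 0.9788, and pairs with 1 array of each time at 0.9759 to 0.9804. The median absolute log2 difference was 0.2127 to 0.2522 within 15 d, 0.2183 to 0.2824 within 18 d and 0.2517 to 0.3392 between the times. The median probe had an absolute log2 fold of 0.2051 and a standard error of 0.2655. A log2 fold over 1 in size was found for 793 probes (5.3%), and 521 of these were lower at 18 d against 272 higher. For 3124 of 14867 probes with values on all 6 arrays (21%) the times did not overlap. Every 18 d array was above every 15 d array for 1811 of them (12.2%) and below for 1313 (8.83%).

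The balance of higher and lower probes followed the scaling of the arrays. The median log2 fold of all probes was 0.0297 after quantile normalization, -0.0899 after division by the 75th percentile and 0.2857 without normalization. The times did not overlap, higher and lower at 18 d, for 850 and 2426 probes after the 75th percentile and for 4651 and 532 without normalization. At an unadjusted p under 0.05 the split of 636 and 587 became 336 and 970 with the 75th percentile and 2204 and 277 without normalization. Gene groups are therefore given below also relative to the median of all probes.

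**Figure D1:**
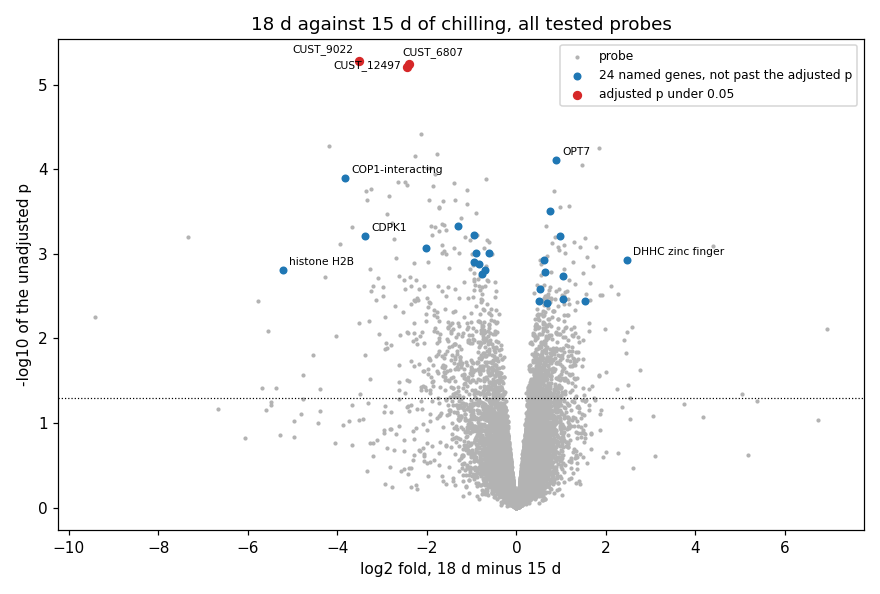
Each of 14956 probes by its log2 fold, 18 d minus 15 d (horizontal axis), and by minus log10 of the unadjusted limma p (vertical axis), with 24 named probes in blue and a dotted line at an unadjusted p of 0.05. The 3 probes with an adjusted p under 0.05 (red) all lie on the side lower at 18 d.

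The 3 probes that fell have no gene name in the study's tables. CUST_6807 was well above background on all 6 arrays. Its level was 12.89, 12.22 and 12.83 at 15 d and 10.29, 10.45 and 9.99 at 18 d. The gap between the groups was wider than the range within either, and the means were 12.65 ± 0.37 and 10.24 ± 0.23 (SD, n = 3). The log2 fold was -2.40 (SE 0.34, adjusted p = 0.0304), a fall of 5.29-fold. Its mean had been 12.00 in unchilled buds, then 11.75 after 6 d and 12.76 after 12 d of chilling. After 24 d it was 11.32.

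CUST_9022 had 8.32, 7.37 and 7.54 at 15 d and 4.69, 4.64 and 3.38 at 18 d. It was well above background on all 3 arrays of 15 d and on 1 of 18 d. The means were 7.74 ± 0.51 and 4.24 ± 0.74 (SD, n = 3). The log2 fold was -3.51 (SE 0.50, adjusted p = 0.0304), a difference taken partly against background, so that no fold is given for it. Its mean at 24 d, 5.87, lay between those of 15 and 18 d.

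CUST_12497, matched to a predicted protein of poplar, had 6.49, 5.77 and 5.66 at 15 d and 4.07, 3.61 and 2.90 at 18 d. At 18 d it was not well above background on any array, so that its fall (log2 fold -2.45, SE 0.35, adjusted p = 0.0304) is given as at least 3.53-fold, the mean of 15 d against the lowest signal well above background on each array. Its mean was 3.53 at 18 d and again 3.53 at 24 d. Folds given here and below as at least a value, or as that value or more, use this lowest signal. They are bounds for the dim level alone and leave out the spread between replicates. Other probes that were not well above background lay above it, such as CUST_5785 with 4.47, 5.02 and 4.87 at 18 d. A stricter limit would therefore give smaller bounds.

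With the row of the array as a fixed block, which the arrays of the other times allow, the 3 log2 folds were -2.50 for CUST_9022, -1.73 for CUST_6807 and -1.98 for CUST_12497, with an adjusted p of 0.850. With slide and row together they were -1.45, -1.02 and -1.67, with an adjusted p of 0.997. The normexp background correction gave -1.39, -2.29 and -0.69 with adjusted p of 0.182, 0.0923 and 0.182. The direction was the same in all 32 settings tried, and the call held in 13 of them for CUST_9022, 14 for CUST_6807 and 10 for CUST_12497.

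Next come 12 lower and 12 higher probes with a protein name, chosen for the size of their moderated t among probes whose times did not overlap. None of the 24 passed the adjusted threshold, with adjusted p of 0.114 to 0.235 for the lower and 0.114 to 0.277 for the higher. Their separation was the ground on which they were picked and is given as a description.

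Among the lower, a histone H2B (CUST_7485), one of the proteins around which DNA is wound, had 13.22, 10.14 and 14.57 at 15 d and 5.81, 8.73 and 7.77 at 18 d. Its replicates were far apart at both times, and the log2 fold was -5.21 (SE 1.33, adjusted p = 0.224). A COP1-interacting protein (CUST_3252) had 7.84, 8.34 and 7.47 at 15 d and 3.50, 4.38 and 4.31 at 18 d. COP1 is the ubiquitin ligase that represses light responses in Arabidopsis. The fit gave -3.82 (SE 0.73, adjusted p = 0.114), and the probe was not well above background at 18 d, which makes it at least 12.2-fold lower there.

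CDPK1 (CUST_12790), a kinase activated by calcium, had 7.77, 7.78 and 7.93 at 15 d and 3.48, 4.90 and 4.98 at 18 d. The replicates of 15 d lay close together, and the log2 fold was -3.37 (SE 0.77, adjusted p = 0.170), or at least 9.91-fold against background. In the fit to the 6 arrays alone its adjusted p was 0.0407 and that of CUST_3252 0.0136. A beta-galactosidase (CUST_8973), an enzyme that trims galactose from cell wall sugars, had 6.23, 6.80 and 6.46 at 15 d and 4.96, 4.41 and 4.06 at 18 d, a log2 fold of -2.02 (SE 0.48, adjusted p = 0.175). Its 18 d levels lay in the range in which CDPK1 was not well above background. Over the 32 settings its log2 fold ran from -2.44 to -0.89. OVA6 (CUST_14607), which in Arabidopsis loads proline onto tRNA in organelles, had 7.15, 6.95 and 7.23 at 15 d and 5.70, 5.80 and 5.92 at 18 d, a log2 fold of -1.30 (SE 0.29, adjusted p = 0.156).

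Several signalling and transcription genes of high signal were lower by about 1 log2 unit or less. EIN2 (CUST_2552), the central membrane protein of the ethylene pathway, had 12.30, 12.94 and 13.01 at 15 d and 12.18, 11.60 and 11.61 at 18 d. Its groups were separated by a narrow gap, with a log2 fold of -0.96 (SE 0.24, adjusted p = 0.202). RAP74 (CUST_9111), a subunit of the general transcription factor TFIIF, had 15.01, 15.41 and 15.18 at 15 d and 14.30, 14.21 and 14.28 at 18 d, a log2 fold of -0.94 (SE 0.21, adjusted p = 0.170).

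SIP3 (CUST_8457), a kinase that works with calcium sensors, had 16.38, 15.86 and 15.81 at 15 d and 14.67, 15.45 and 15.23 at 18 d (log2 fold -0.90, SE 0.22, adjusted p = 0.181). NAC017 (CUST_1111), a transcription factor that in Arabidopsis signals from mitochondria to the nucleus, had 15.86, 15.84 and 15.63 at 15 d and 14.96, 15.13 and 15.41 at 18 d (log2 fold -0.61, SE 0.15, adjusted p = 0.181). A phosphoglucomutase (CUST_13133), which converts glucose phosphates between starch, sucrose and glycolysis, had 15.87, 15.95 and 15.83 at 15 d and 14.80, 15.02 and 15.55 at 18 d (log2 fold -0.76, SE 0.19, adjusted p = 0.235). In all 3, 1 array of 18 d came near the lowest of 15 d.

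Of the higher probes, the one with the largest moderated t was OPT7 (CUST_8542), a transporter of small peptides. Its level was 9.37, 9.46 and 9.60 at 15 d and 10.26, 10.50 and 10.33 at 18 d. The gap between the groups was wider than the range within either, and the log2 fold was 0.88 (SE 0.16, adjusted p = 0.114).

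A purine permease (CUST_2903), from a family that carries nucleobases and cytokinins, had 13.06, 13.19 and 13.46 at 15 d and 14.24, 14.07 and 13.62 at 18 d, a log2 fold of 0.74 (SE 0.16, adjusted p = 0.133). IBM1 (CUST_257), in Arabidopsis a demethylase that removes a repressive histone mark from gene bodies, had 9.12, 9.27 and 9.24 at 15 d and 9.79, 10.59 and 10.19 at 18 d, a log2 fold of 0.98 (SE 0.22, adjusted p = 0.170). HMGB6 (CUST_328), a small protein that bends DNA, had 15.09, 15.74 and 15.47 at 15 d and 16.89, 16.48 and 16.08 at 18 d, a log2 fold of 1.05 (SE 0.27, adjusted p = 0.241). For the purine permease 1 array of 18 d came close to the highest of 15 d, while the groups of IBM1 and HMGB6 stood further apart.

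A protein with a DHHC zinc finger (CUST_3481), the domain of enzymes that attach palmitate to proteins, had 3.10, 3.54 and 3.04 at 15 d. It was not well above background on any of these arrays, and had 4.70, 6.22 and 6.17 at 18 d. Its fitted log2 fold was 2.47 (SE 0.61, adjusted p = 0.198), and it was at least 3.78-fold higher at 18 d. The NAC transcription factor anac064 (CUST_12556) had 3.51, 4.30 and 3.78 at 15 d and 4.80, 6.01 and 5.38 at 18 d, at least 2.68-fold higher (adjusted p = 0.270). Both were thus at the lower limit of detection at 15 d. The transcription factor PTF1 (CUST_8668) had 11.77, 11.87 and 11.91 at 15 d and 12.47, 12.53 and 12.39 at 18 d (log2 fold 0.61, SE 0.15, adjusted p = 0.198). A factor of the ethylene response class (CUST_2616) had 11.01, 10.90 and 11.09 at 15 d and 11.47, 11.64 and 11.78 at 18 d (log2 fold 0.63, SE 0.16, adjusted p = 0.229).

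CIPK23 (CUST_5114), a kinase that in Arabidopsis activates potassium uptake, had 10.34, 10.12 and 10.17 at 15 d and 11.10, 10.93 and 10.65 at 18 d (log2 fold 0.68, SE 0.20, adjusted p = 0.277). MAP65-1 (CUST_6772), which bundles microtubules in dividing and growing cells, had 11.08, 11.14 and 11.31 at 15 d and 11.89, 11.47 and 11.72 at 18 d (log2 fold 0.52, SE 0.14, adjusted p = 0.262). A protein like TIR1 (CUST_3415), the auxin receptor, had 11.51, 11.49 and 11.55 at 15 d and 11.83, 12.04 and 12.21 at 18 d (log2 fold 0.51, SE 0.15, adjusted p = 0.270). These differences were small and the replicates close.

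**Figure D2:**
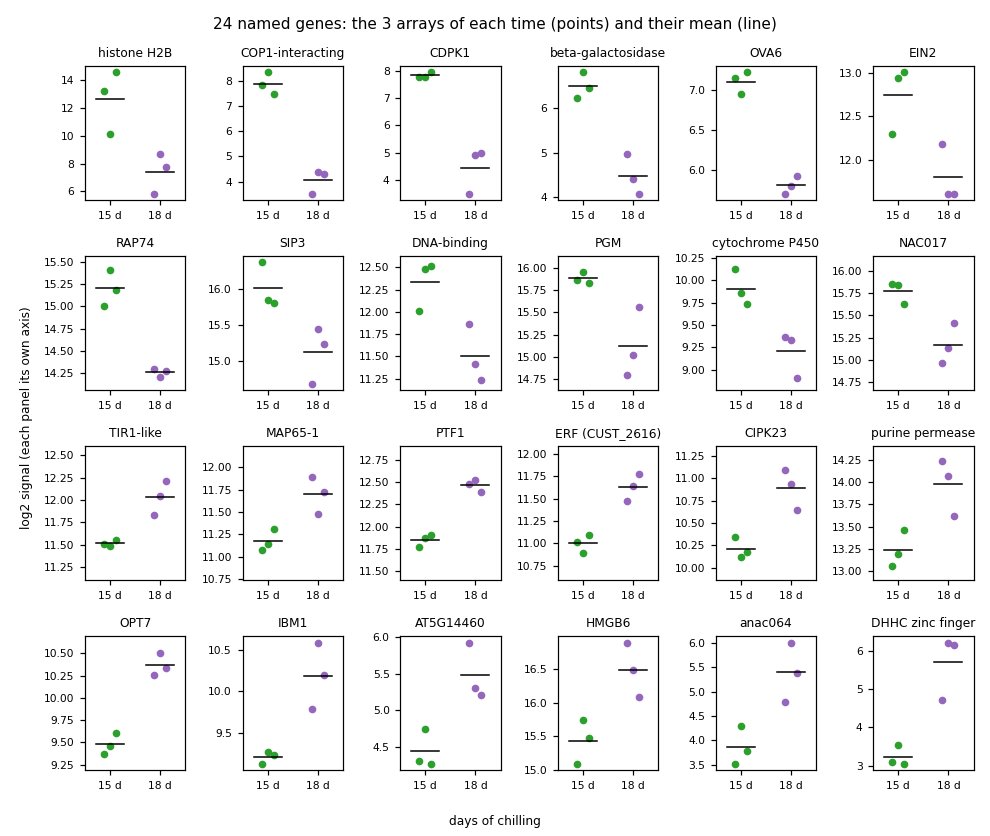
Quantile-normalized log2 signal (vertical axis, each panel with its own scale) of the 24 probes with a protein name, at 15 and 18 d (horizontal axis), with 1 point per array and a bar at the mean. The times do not overlap for any of them, which was a condition of choice, and H2B (CUST_7485) has the widest replicates at 15 d.

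Of 14957 probes, some were well above background at only 1 of the times. On all 3 arrays of 15 d and on no array of 18 d, 36 probes were well above background, and 55 were so on all 3 arrays of 18 d and on none of 15 d. This is judged on each array before normalization, where every 18 d array was brighter. The part of brightness in the 2 counts was not tested. The times did not overlap for 36 of the 36 and for 44 of the 55. Since detection at only 1 of the times chose these probes, their differences are a description. An unadjusted p under 0.05 was reached by 35 of the 36 and by 29 of the 55, and none passed the adjusted threshold apart from CUST_12497. Of the 36, 19 had been above background on all 3 arrays at 12 d and 29 at 0 d, and 12 were so at 24 d. Of the 55, 24 were above background on no array at 12 d and 36 on none at 0 d. At 24 d 6 of the 55 were on all 3 arrays and 2 on none.

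With a protein name, 4 of the 36 and 9 of the 55 can be described, and none of these passed (adjusted p of 0.114 to 0.736). Beside the COP1-interacting protein and CDPK1, those detected at 15 d only were a triacylglycerol lipase (CUST_11116), which releases fatty acids from storage oil, and a sugar transporter (CUST_10283). The lipase had a mean of 6.86 at 15 d and 3.96 at 18 d, at least 6.31-fold lower (adjusted p = 0.392), and the sugar transporter was at least 2.48-fold lower (adjusted p = 0.444). Those detected at 18 d only, beside the DHHC protein and anac064, included PAT2 (CUST_15279) with a log2 fold of 1.26 (SE 0.47, adjusted p = 0.456). A pentatricopeptide repeat protein (CUST_1767), from a family that handles organelle RNA, was higher by 2.15-fold or more (adjusted p = 0.444). SMC6A, a subunit of a complex that repairs DNA, was higher by 1.88-fold or more (adjusted p = 0.645). A polygalacturonase (CUST_4010), which cuts pectin, had a log2 fold of 0.78 (SE 0.49, adjusted p = 0.736). For PAT2 and this polygalacturonase the 15 d signals exceeded the lowest one well above background on each array, so no bound is given.

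Of the gibberellin genes none passed the adjusted threshold. The study's gibberellin list holds 51 probes, 44 of them well above background on all 6 arrays. A log2 fold under 0.5 in size was found for 39 of them and one under 1 for 48. At an unadjusted p under 0.05, 2 were higher and 5 lower, which is 13.7% against 8.18% of all probes. The times did not overlap for 5 higher and 7 lower, which is 23.5% against 21% of all probes. Of all probes with a description or symbol, 16.3% passed the unadjusted threshold and 33.1% did not overlap. The median log2 fold was -0.0333 against 0.0297 for all probes, and the median standard error was 0.31.

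The enzymes of gibberellin synthesis showed no separation that passed. A gibberellin 20-oxidase (CUST_6430), which makes the precursors of active gibberellin, had 11.67, 13.24 and 13.80 at 15 d and 13.64, 12.19 and 13.67 at 18 d, overlapping (log2 fold 0.26, SE 0.53, adjusted p = 0.944). GA2 (CUST_5965), the kaurene synthase early in the pathway, had 8.02, 8.02 and 8.01 at 15 d and 8.44, 8.78 and 8.37 at 18 d, without overlap (log2 fold 0.51, SE 0.31, adjusted p = 0.724). The inactivating GA2OX8 (CUST_13238) had 11.21, 10.96 and 11.03 at 15 d and 10.14, 10.87 and 10.40 at 18 d, without overlap. Its log2 fold was -0.60 (SE 0.25, unadjusted p = 0.0341, adjusted p = 0.549).

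The receptors and, RGA1 apart, the DELLA proteins whose spread is given here lay within the replicate spread. GID1A had 14.67, 14.85 and 14.62 at 15 d and 14.31, 14.52 and 15.22 at 18 d (log2 fold -0.03, SE 0.24), and GID1B had 6.92, 7.10 and 6.51 at 15 d and 6.29, 7.14 and 7.44 at 18 d (log2 fold 0.11, SE 0.37). Of the DELLA proteins, RGA1 had means of 8.91 ± 0.09 at 15 d and 8.74 ± 0.08 at 18 d (SD, n = 3), with the lowest array of 15 d and the highest of 18 d both at 8.81 (log2 fold -0.17, SE 0.15). For RGA2 the log2 fold was 0.12 (SE 0.26) and for RGL1 -0.08 (SE 0.21). Apart from RGA1, whose arrays just failed to overlap, all of these overlapped between the times. GAI (CUST_11249), a further DELLA protein, had a log2 fold of 0.19. SPY had 14.45, 14.31 and 14.48 at 15 d and 13.89, 14.32 and 13.82 at 18 d, with 1 array of 18 d just inside the range of 15 d (log2 fold -0.41, SE 0.18, unadjusted p = 0.0378, adjusted p = 0.569).

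Downstream of the pathway, AMY2 (CUST_12838) had the widest difference among these genes and the widest replicates. Its level was 12.53, 14.01 and 13.21 at 15 d and 5.61, 12.70 and 7.83 at 18 d, so that 1 array of 18 d lay within the range of 15 d. The means were 13.25 ± 0.74 and 8.72 ± 3.63 (SD, n = 3), the log2 fold was -4.54 (SE 1.65) and the adjusted p 0.444. Over the whole time course its mean was 13.30 in unchilled buds, was lowest at 6 d with 5.91, stood at 9.75 at 12 d, and was 8.34 at the last time, 24 d. With the row of the array as a block its log2 fold was -2.08.

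CYCD2;1 (CUST_5740) had 14.03, 14.15 and 14.25 at 15 d and 14.35, 14.59 and 14.63 at 18 d, a small difference without overlap (log2 fold 0.38, SE 0.17, unadjusted p = 0.0464, adjusted p = 0.595). The cyclin CYC1 had 8.03, 9.58 and 9.07 at 15 d and 10.13, 9.66 and 9.42 at 18 d (log2 fold 0.84, SE 0.58). TUB7, a beta-tubulin of the microtubules, had 6.08, 6.84 and 7.03 at 15 d and 7.71, 7.47 and 7.24 at 18 d, without overlap (log2 fold 0.83, SE 0.45). Of the GASA genes, small secreted proteins that respond to gibberellin, GASA2 had 7.43, 7.09 and 7.61 at 15 d and 7.91, 8.41 and 8.08 at 18 d (log2 fold 0.76, SE 0.31, adjusted p = 0.517). GASA1 went the other way with overlapping arrays, 15.33, 15.32 and 14.36 against 12.70, 14.88 and 14.04 (log2 fold -1.13, SE 0.70, adjusted p = 0.733).

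**Figure D3:**
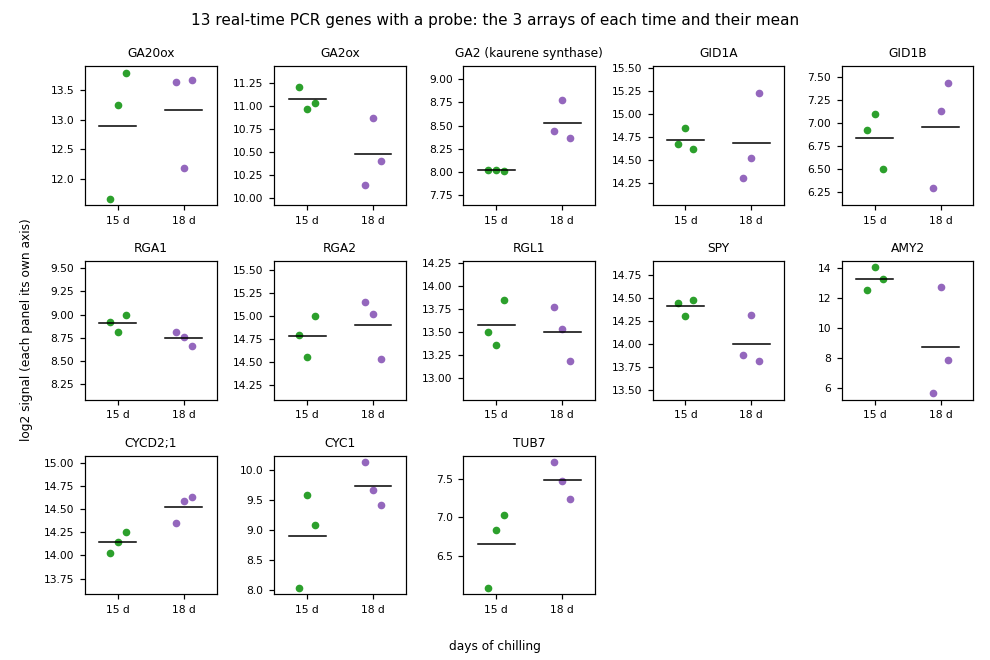
Quantile-normalized log2 signal (vertical axis, each panel with its own scale) of the 13 real-time PCR genes of the study with a probe, at 15 and 18 d (horizontal axis), with 1 point per array and a bar at the mean. AMY2 spans from 5.61 to 12.70 within 18 d, and the receptors GID1A and GID1B overlap between the times.

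No list of genes drawn from the study's functional classes or from words in the protein names held a called probe. Their counts are read against the 4.25% of all probes that were higher and the 3.92% that were lower at an unadjusted p under 0.05, and against the 12.2% and 8.83% without overlap. Members come only from the 3753 probes with a description or symbol, which include those the study had called changed on these arrays. Of these 3753, 301 were higher and 309 lower at an unadjusted p under 0.05 (16.3%), and 33.1% did not overlap. A list near these shares does not stand out. Of all probes, 54.1% were higher at 18 d with quantile normalization and 37.8% with the 75th percentile, so that the split of a list is given for both where it moved.

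The lists of growth and division varied in their share at an unadjusted p under 0.05. It was 0% for DNA replication, 13.9% for cell cycle and division and 45.5% for core histones, against 16.3% of described probes. Of 11 DNA replication probes, 10 were higher at 18 d, with a median log2 fold of 0.20, but 0 passed an unadjusted p under 0.05 and 3 did not overlap. PCNA1, the clamp of the replication fork, had a log2 fold of 0.45 (SE 0.22, adjusted p = 0.641), with overlapping arrays. With the 75th percentile, 6 of the 11 were higher, and 7 lay above the median of all probes, against 10 with quantile normalization. Of 36 cell cycle and division probes, the times did not overlap for 7 higher and 6 lower, which is 36.1% against 33.1% of described probes. In direction, 22 were higher and 14 lower, with 3 and 2 at an unadjusted p under 0.05 and a median of 0.18. With the 75th percentile the split was 18 and 18 with a median of 0.01, while 21 of the 36 lay above the median of all probes with either scaling.

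Of 11 core histone probes, 7 were higher and 4 lower, with 4 and 1 at an unadjusted p under 0.05, and the median was 0.48. Histone H4 (CUST_67) had 8.04, 8.19 and 8.57 at 15 d and 10.34, 12.94 and 9.29 at 18 d (log2 fold 2.59, SE 0.83, adjusted p = 0.359), the opposite direction to the H2B probe described above. Histone H3.2 (CUST_4606) had a log2 fold of 0.48, H3 (CUST_2804) of 0.71 and H2 (CUST_5723) of 0.74, of which only H3.2 did not overlap. Probes for near-identical histone copies may share signal.

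Among 10 tubulin and actin probes 8 were higher, with a median of 0.22 and 1 at an unadjusted p under 0.05, a kinesin-3 (CUST_14635) that moves along microtubules (log2 fold 0.76, adjusted p = 0.462). With the 75th percentile 6 of the 10 were higher, with a median of 0.11. Of 6 cell wall probes 4 were higher, and 2 passed the unadjusted threshold. These were the xyloglucan galactosyltransferase KATAMARI1 (CUST_2638), with 9.06, 9.09 and 8.86 at 15 d and 9.49, 9.37 and 9.67 at 18 d (log2 fold 0.51, adjusted p = 0.476), and a polygalacturonase (CUST_13912) with a log2 fold of 0.42 (adjusted p = 0.488).

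Genes of energy metabolism differed little between the times. Of 17 oxidative phosphorylation probes 15 were higher, with a median log2 fold of 0.13, 1 at an unadjusted p under 0.05 and 4 higher without overlap. Relative to the median of all probes, 13 of the 17 lay above it with quantile normalization and 16 with the 75th percentile, where 13 were higher. The 20 glycolysis probes were split into 10 higher and 10 lower, with 1 at an unadjusted p under 0.05, and the 14 citrate cycle probes into 7 and 7, with 1. With the 75th percentile these splits were 8 and 12, and 5 and 9. Of 9 pentose phosphate pathway probes 6 were lower and 2 of these passed an unadjusted p under 0.05. Of 16 starch and sucrose probes, 10 were lower, 2 of them at an unadjusted p under 0.05. Antioxidant genes were higher for 8 of 9 probes with 0 at the unadjusted threshold, and for 6 of 9 with the 75th percentile.

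For protein turnover, 21 of 28 proteasome and ubiquitin probes were higher, with a median of 0.15. Of these, 3 passed an unadjusted p under 0.05, all higher, and the times did not overlap for 9 higher and 2 lower. PBC1 (CUST_10423), a subunit of the proteolytic core, had 15.69, 15.66 and 15.70 at 15 d and 16.08, 15.96 and 15.95 at 18 d, a small log2 fold of 0.32 (SE 0.11, adjusted p = 0.391) with close replicates. Relative to all probes, 18 of 28 lay above the median, and 20 with the 75th percentile, where 15 were higher. The 46 ribosome probes were split into 25 higher and 21 lower (16 and 30 with the 75th percentile), with 2 and 5 at an unadjusted p under 0.05. RPL34 (CUST_7415) was lower without overlap (log2 fold -0.57, SE 0.18, adjusted p = 0.344). Of 32 spliceosome probes 1 was at an unadjusted p under 0.05.

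Of 144 transcription factor probes, 74 were higher and 70 lower, or 58 and 86 with the 75th percentile, with 10 in each direction at an unadjusted p under 0.05. Of the 6 NAC probes, 4 were lower with a median of -0.40, and 5 with the 75th percentile. A NAC domain protein (CUST_13179) had 14.23, 14.13 and 14.04 at 15 d and 12.50, 12.93 and 13.15 at 18 d (log2 fold -1.27, SE 0.36, adjusted p = 0.270). GBF6, a bZIP factor controlled by sucrose in Arabidopsis, had 16.93, 17.03 and 16.56 at 15 d and 15.62, 16.14 and 16.39 at 18 d (log2 fold -0.79, adjusted p = 0.392). In the other direction, the homeobox factor HB21 had 13.96, 14.74 and 14.64 at 15 d and 15.38, 15.26 and 14.98 at 18 d (log2 fold 0.76, adjusted p = 0.508).

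The ethylene and AP2/ERF probes went both ways, 7 higher and 7 lower of 14 (5 and 9 with the 75th percentile), with 2 and 1 at an unadjusted p under 0.05. EIN3 (CUST_5911), a master transcription factor of the ethylene response that stands in the transcription factor list, had 6.91, 6.17 and 5.87 at 15 d and 4.85, 5.13 and 5.32 at 18 d (log2 fold -1.22, SE 0.41, adjusted p = 0.372). Its signal at 18 d was low, and over the 32 settings the log2 fold of EIN3 ran from -1.59 to -0.43. EIL3, of the same family, had 4.92, 5.30 and 5.18 at 15 d and 5.88, 6.47 and 6.98 at 18 d (log2 fold 1.31, SE 0.54, adjusted p = 0.531), and it was well above background on 1 array of 15 d and all 3 of 18 d.

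Of 134 transporter probes, 88 were higher and 46 lower, with 13 in each direction at an unadjusted p under 0.05, and 81 lay above the median of all probes. With the 75th percentile 65 were higher and 69 lower, and 83 lay above that median. PDR6, an ABC transporter, had 10.34, 11.14 and 11.21 at 15 d and 10.21, 9.85 and 9.82 at 18 d (log2 fold -0.94, SE 0.25, adjusted p = 0.259). A mitochondrial carrier (AT2G30160) had 9.03, 8.93 and 9.13 at 15 d and 9.83, 9.98 and 9.61 at 18 d (log2 fold 0.78, SE 0.25, adjusted p = 0.358). DELTA-TIP, a water channel of the vacuole, had a log2 fold of 1.04 with overlapping arrays (adjusted p = 0.372). Of 33 protein kinase probes 22 were lower (26 with the 75th percentile), 3 of them at an unadjusted p under 0.05 against 2 higher. Of 6 probes for DNA methylation and chromatin, MET1, the maintenance DNA methyltransferase, had 14.71, 14.86 and 15.11 at 15 d and 15.99, 15.43 and 15.10 at 18 d (log2 fold 0.62, adjusted p = 0.428). The median of the 6 auxin probes changed side with the scaling, 0.13 above that of all probes with quantile normalization and 0.13 below it with the 75th percentile.

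**Figure D4:**
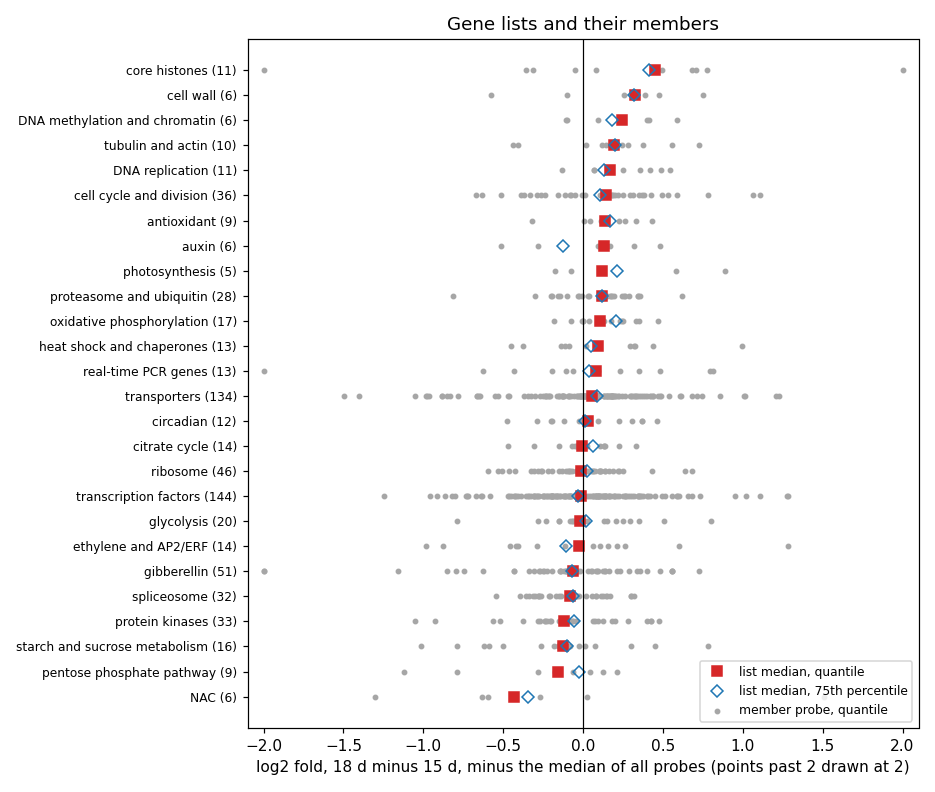
The log2 fold, 18 d minus 15 d, minus the median of all probes (horizontal axis) for the probes of each gene list (grey points, those past 2 drawn at 2), with the list's median after quantile normalization (red squares) and after the 75th percentile (blue diamonds). With quantile normalization the median of the core histones is 0.45 above that of all probes and that of the NAC probes is at -0.43.

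Markers of tissues within the bud were present at both times. All 5 green tissue markers were well above background on all 6 arrays. The log2 of their summed signal, in which the brightest probes weigh most, was 14.16, 13.47 and 13.21 at 15 d and 14.20, 13.99 and 13.92 at 18 d. The largest rise among them was that of a chlorophyll-binding protein (CUST_10302), with 9.62, 9.06 and 9.07 at 15 d and 10.44, 10.27 and 9.78 at 18 d (log2 fold 0.92, SE 0.30, adjusted p = 0.367). The log2 folds of the others were 0.61 (CUST_14304), 0.15 (CUST_5582), -0.05 (CUST_13459) and -0.14 (CUST_4274, also chlorophyll-binding), so that the markers went both ways. All 4 markers of dividing cells were likewise above background. The log2 of their summed signal was 15.79, 15.82 and 15.95 at 15 d and 15.97, 15.86 and 15.53 at 18 d, which overlapped. ML1, of the epidermis, was at 11.68 to 12.41 at 15 d and 11.74 to 12.26 at 18 d. AGL20, a promoter of flowering, was at 13.69 to 13.99 and 13.34 to 13.86. The part of tissue shares in the differences above was not tested.

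Whether the step from 15 to 18 d differed from its neighbours was tested in the same fit. Against the step from 12 to 15 d, 0 of 14956 probes passed the adjusted threshold in limma, and 932 (6.23%) had an unadjusted p under 0.05. Against the step from 18 to 24 d, 0 of 14955 passed and 1593 (10.7%) had an unadjusted p under 0.05. With the slide as a fixed block the counts past the adjusted threshold were 1 and 5. These contrasts use arrays of other slides, since the arrays of 12 d lay mostly on the slide before and those of 24 d mostly on the slide after. No probe's change was therefore shown to be particular to the release step, those of the 3 called probes included. For these, the difference from the step before had an adjusted p of 0.617 to 0.644, and that from the step after 0.132 to 0.198.

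**Figure D5:**
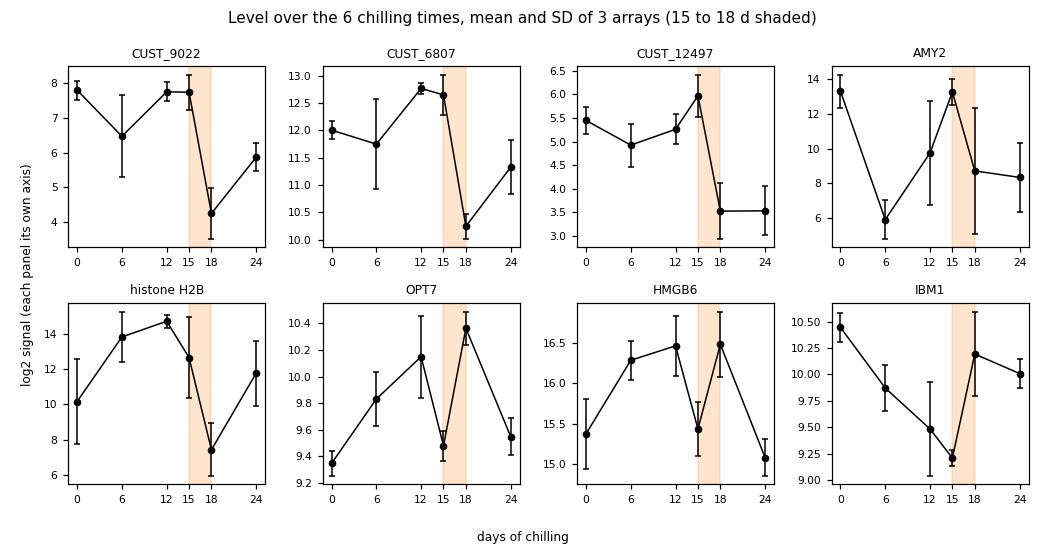
Mean quantile-normalized log2 signal over the 6 chilling times in d (horizontal axis), with the SD of 3 arrays as error bars, for probes named in the text. CUST_6807 stays between 11.75 and 12.76 up to 15 d and is at 10.24 at 18 d, while AMY2 is at 5.91 at 6 d and back at 13.25 at 15 d.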

How the data were processed

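Buds of 6 chilling times were measured on 18 single-channel arrays, and the 6 arrays of 15 and 18 d are compared here. Per the file headers, each deposited scanner file gives the intensity of 1 array after Feature Extraction 10.5.1.1, an Agilent program, had subtracted the background and removed spatial trends, without scaling across arrays. The authors also deposited a table of log2 values, quantile-normalized in GeneSpring, for 14949 probes, which served as an alternative and correlated with the values used here at 0.9998 or more on every array. Intensities were taken to log2, flagged outlier spots and 536 control spots were left out, spots of a probe were averaged, and quantile normalization was applied across all 18 arrays. Between 4 and 28 probes per array of 15 and 18 d were left out by the flags.

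A model with 1 mean for each chilling time was fitted over the 18 arrays in limma 3.58.1 (R 4.3.3, statmod 1.5.0), with 12 residual degrees of freedom, and p-values of the moderated t were adjusted by Benjamini-Hochberg over all probes, with a threshold of 0.05. The script was tested on simulated data. An SD covers the 3 arrays of its time, and this number of arrays limits the precision. The labels give the replicates as separate plants.

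Named are the genes of the study's real-time PCR and gibberellin tables, members of gene lists, every called probe, and in each direction the 12 probes of largest moderated t with a named protein that were well above background on all 3 arrays at 1 time, with no overlap between times and an unadjusted p under 0.05. The members and the lists were chosen with earlier results of these data known. The study's annotation tables are held here in part, so that a list may lack members. Alternatives changed the scaling, background correction, dim probe filter, samples in the fit, slide, row, replicate number, variance prior, flagged spots, test and the arrays left out. Comparing lists with the median of all probes under each scaling was added after seeing the data.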

Additional observations from a re-analysis of the deposited data

How the results depend on the processing

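With 3 pools per time, the calls depended on single arrays and on the handling of dim signal. The count of probes past an adjusted p under 0.05 in limma was 3 in the report. The same 3 passed with dim probes left out, slide as a random block, flagged spots kept or a 2-fold threshold. The 75th percentile also gave 3, of which 2 were shared with these. The deposited value table and a trended and robust prior each gave 2, all shared. The count was 0 without normalization, with normexp, with slide as a fixed block and with row as a fixed block. It was 2 with slide and row as fixed blocks, of which 0 were shared with the 3. The 6 arrays alone gave 78. The methods' Tukey test gave 260 at an unadjusted p under 0.05 and 0 after Benjamini-Hochberg adjustment. Leaving out single arrays gave 0 to 15, with 0 for each array of 0, 15 and 18 d and for replicates 1 and 2 of 24 d. The array left out decided the highest counts, 15 when replicate 1 of 6 d was absent and 13 when it was replicate 2 of 12 d. The cause was not tested.

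At an unadjusted p under 0.05 the count of 1223 became 2481 without normalization, 2093 with the 6 arrays alone and 715 with slide and row as fixed blocks, and 884 to 1518 with single arrays left out. The count of 3124 probes without overlap became 5183 without normalization. The test against the step before gave 1 with slide as a fixed block, 2 with slide and row, and 0 with any single array left out. The test against the step after gave 1 with normexp, 5 with slide as a fixed block, 5 with slide and row, and 0 to 4 with single arrays left out.

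Samples of the same replicate number did not deviate together (correlations of 0.0343, -0.0436 and -0.0482), so that the numbers do not pair the samples. With the replicate number as a block 0 probes passed, and with the replicate block in the 6 arrays alone 8 passed.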

Other observations

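A few probes without a protein name had wide differences between the times, and were chosen after their values were seen. CUST_796 had 12.19, 14.10 and 14.26 at 15 d and 3.58, 4.54 and 4.19 at 18 d, where it was not well above background, so that it was at least 582-fold lower. Its unadjusted p in limma was 0.00553 and its adjusted p 0.325. Replicates of CUST_796 were as far apart within other times, with 13.16, 2.73 and 12.36 at 0 d and 3.82, 12.47 and 13.68 at 24 d. CUST_10083, matched to a hypothetical protein of grapevine, had 10.43, 10.20 and 10.71 at 15 d and 3.16, 3.15 and 3.02 at 18 d (adjusted p = 0.170), where it too was not well above background, so that it was at least 95.9-fold lower. Its replicates were close at both times, and the fit to the 6 arrays alone gave an adjusted p of 7.53e-05. At 6 d they were far apart, with 11.04, 3.32 and 8.19, and the SD at other times entered the fit over all 18. CUST_3757 went the other way, with 3.11, 3.37 and 3.07 at 15 d and 7.47, 7.64 and 6.96 at 18 d (adjusted p = 0.669, or 0.00229 with the 6 arrays alone). It was not well above background on any array of 15 d and was at least 11.9-fold higher at 18 d. At 12 d its replicates were far apart, with 14.6, 3.2 and 4.8.

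Probes with a description in the study's tables passed an unadjusted p under 0.05 more often (16.3%) than the 11203 without one (5.47%). The described probes include those the study had called changed on these arrays.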
